A study of Homo sapiens with 6 samples.

Results

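The neurotrophin and GDNF family genes of SH-SY5Y cells were followed through PSF knockdown. The 9 genes were fixed by symbol: the neurotrophin receptors NTRK2, NTRK3 and NGFR, the sorting receptor SORT1, the ligand BDNF, the GDNF family receptor RET and its coreceptors GFRA1, GFRA2 and GFRA3. All 9 had a row among the 21301 genes of the count table, and edgeR's low-count filter kept all 9 among its 19694 genes. SH-SY5Y is a human neuroblastoma line, and each group was made of 3 libraries of poly(A) RNA taken 72 h after transfection. The groups received siControl or siPSF at 10 nM, and both were grown in the same medium with serum. The study describes the libraries as biological triplicates. The labels name a single siPSF treatment and not which siRNA it was. The study's methods name a single one of its numbered siPSF siRNAs for this RNA-seq. Loss of PSF and any other action of that siRNA therefore cannot be told apart. In bulk RNA, fewer cells with a transcript and less transcript per cell cannot be told apart either.

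Neurotrophins are secreted growth factors that bind Trk receptor tyrosine kinases. NTRK2 encodes TrkB, the receptor for BDNF, and NTRK3 encodes TrkC, the receptor for NT-3. NGFR encodes the low-affinity receptor shared by all neurotrophins, and SORT1 encodes sortilin, which binds proneurotrophins together with NGFR and sorts BDNF inside the cell. The GDNF family ligands first bind a GPI-anchored GFRA coreceptor, and the pair then activates the RET kinase. In the sympathoadrenal lineage, from which neuroblastoma arises, both systems are known to steer survival and differentiation.

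RET and NTRK2 fell after siPSF, RET to 45.2% and NTRK2 to 44.6% of the siControl level, and none of the other 7 genes passed the test in either direction. The stretch before the start of RET is printed because RET was called and is the most abundant of the 9 genes per exon length, and that of GFRA3 because it is the most abundant coreceptor of RET and was not called. The RefSeq table (GRCh38.p14) gave a start site for 7 of the 9 genes, and no entry was matched for NGFR and GFRA2. The 250 bases upstream of each RefSeq start are given 5′ to 3′ on the gene's strand, from chr10:43076819-43077068 for RET on the plus strand and chr5:138274622-138274871 for GFRA3 on the minus strand. The NTRK2 window lies inside the annotated gene, over exons of other NTRK2 transcripts, and is given by its motif counts only. Capitals mark the GC box GGGCGG on either strand, so that it appears as CCGCCC where it lies on the minus strand. Which start site these cells used was not measured.
RET: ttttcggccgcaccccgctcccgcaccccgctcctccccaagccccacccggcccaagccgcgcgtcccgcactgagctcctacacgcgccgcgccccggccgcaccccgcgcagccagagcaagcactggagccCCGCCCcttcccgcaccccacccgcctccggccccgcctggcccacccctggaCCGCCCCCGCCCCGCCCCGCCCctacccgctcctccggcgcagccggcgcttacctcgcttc
GFRA3: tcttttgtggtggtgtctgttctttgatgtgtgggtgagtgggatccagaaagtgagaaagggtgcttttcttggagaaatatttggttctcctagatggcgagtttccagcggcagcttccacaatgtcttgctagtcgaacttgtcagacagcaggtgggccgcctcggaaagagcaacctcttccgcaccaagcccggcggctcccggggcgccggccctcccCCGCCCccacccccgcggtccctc

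The RET window held 5 GC boxes, and its GC content of 79.6% was above that of 96.3% of the 35116 windows of that length. The NTRK2 window held 1 GC box and had a GC content of 50.0%, above that of 31.9% of the windows. At least 1 GC box was present in 42.6% of all windows, and 5 or more in 4.15%. The other motifs searched on both strands were the cAMP response element TGACGTCA (1.65% of windows), the TATA box TATAAA (10.7%) and the E-box CANNTG (61.8%). None of these 3 sequences occurred in the RET or NTRK2 window, and the GFRA3 window held 1 E-box. Among the 5 matched genes that were not called, GC boxes numbered 3 for SORT1, 2 for NTRK3, 1 each for BDNF and GFRA3, and 0 for GFRA1. The GC content of these 5 windows was 74.0% for SORT1, 73.2% for NTRK3, 59.2% for GFRA3, 56.0% for BDNF and 43.2% for GFRA1.

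The counts of the libraries summed to between 101540520 and 132420931, and levels are given as CPM, a gene's count as a share of the library size after TMM normalization. The gene encoding PSF, SFPQ, fell to 50.2% of its siControl level (log2 fold change -0.99, with a standard error, SE, of 0.10, edgeR's adjusted p = 9.51e-05), with its lowest level, 165 CPM, in siPSF replicate 3. The noradrenergic neuroblast markers summed to between 4753 and 5904 CPM over the 6 libraries. All 11 were measured, among them HAND2 at 1177 CPM and DBH at 1738 CPM in siControl. TH was low, at 0.741 CPM in siControl, with counts from 17 to 112 per library. Of these 11 markers 3 were called lower (DBH, TH and ELAVL4) and 1 higher (GATA3), against 8.27% and 6.65% of all genes tested. With 1 library omitted, DBH was called in all 6 fits, TH and ELAVL4 in 4, and GATA3 in 0, with an adjusted p of up to 0.0988 by edgeR. The mesenchymal markers, 7 of 8 of them tested, summed to between 322 and 366 CPM, with 1 called lower (FN1) and 0 higher. The glial and Schwann cell markers, 4 of 8 of them tested, summed to between 1.66 and 3.26 CPM, and SOX10, GFAP and CDH19 were not analysed here. None of the glial markers tested was called, and the part of these markers in the results that follow was not tested.

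The groups were compared with edgeR's quasi-likelihood method over all 19694 genes, with Benjamini-Hochberg adjustment over all of them. A gene was called at an adjusted p under 0.05. Among the 9 genes 2 were called lower, against 8.27% of all genes tested, and 0 were called higher, against 6.65%. At an unadjusted p under 0.05, 5 of the 9 differed, against 29.8% of all genes tested. DESeq2's Wald test called 3 of the 9 lower, NGFR being added, and also called 0 higher. The median log2 fold change was -0.25 over the 9 genes and 0.01 over all genes tested. In 4 of the 9, RET, NTRK2, NGFR and SORT1, no siPSF library overlapped a siControl library, which was so in 34.4% of all genes tested.

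**Figure D1:**
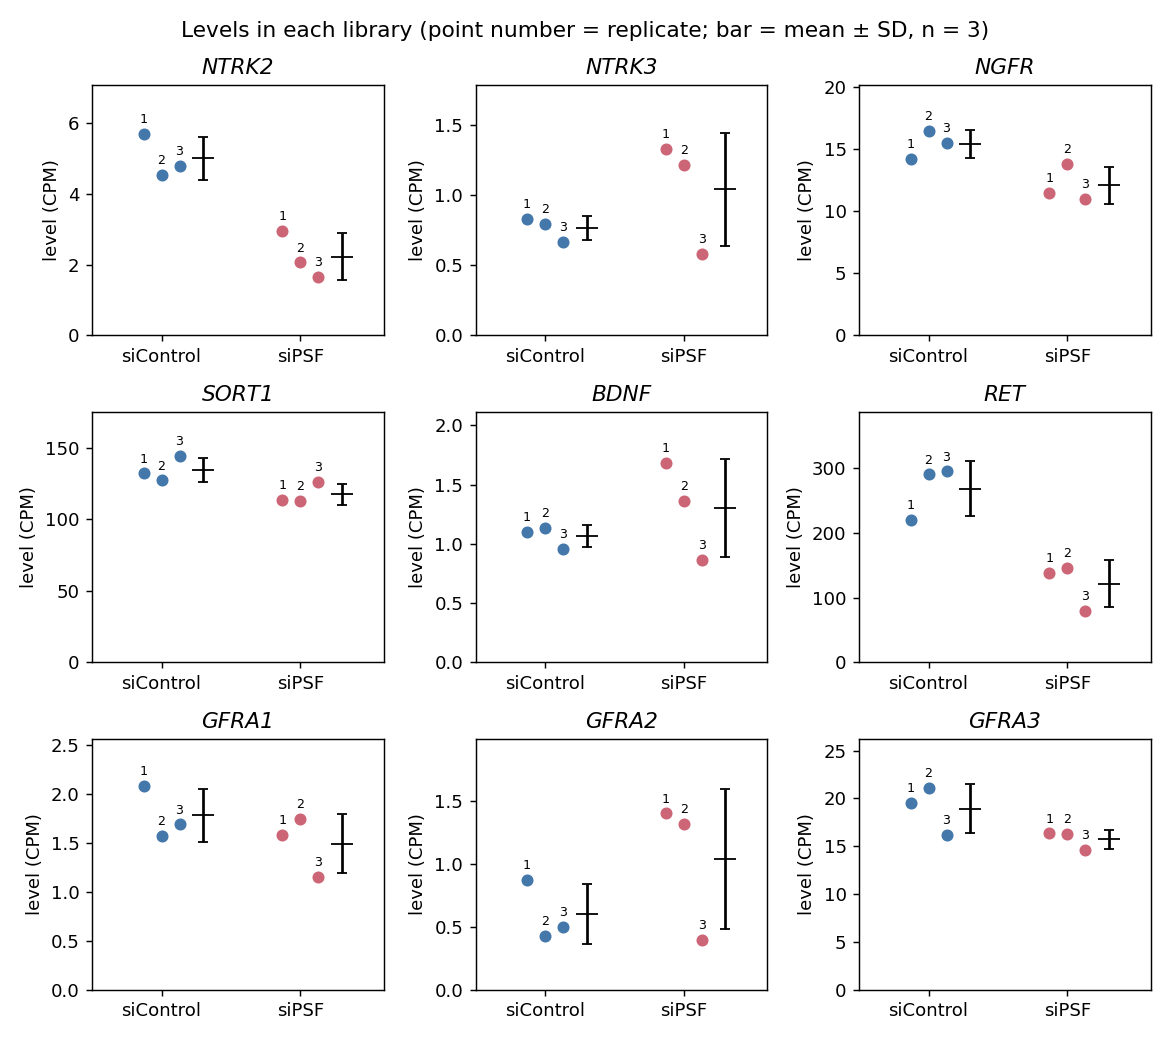
Level of each gene in CPM (y axis, from 0) in the 3 siControl and 3 siPSF libraries (x axis), with replicate numbers above the points and the mean ± SD beside them. RET and NTRK2 are lower in every siPSF library, and in NTRK3, BDNF and GFRA2 siPSF replicate 3 lies apart from the other siPSF libraries.

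RET (gene ID 5979; chromosome 10 of GRCh38 from 43077069 to 43130351) encodes the signalling kinase that all GDNF family ligands share. The siControl libraries held 219, 290 and 294 CPM of RET and the siPSF libraries 138, 146 and 79.4 CPM. The highest siPSF value was under the lowest siControl value, and siPSF replicate 3, which also had the least SFPQ, was the lowest. From a siControl mean of 268 ± 42.0 CPM, RET reached 121 ± 36.2 CPM (SD, n = 3 each), and the log2 fold change was -1.15 (SE 0.19, 95% interval -1.56 to -0.73, edgeR's adjusted p = 0.00201). Leaving out any 1 library kept the estimate between -1.30 and -0.92, and RET was called in all 6 such fits. RET had rank 437 from the lowest fold change among the 19694 genes, and NTRK2 had rank 413.

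The coreceptors of RET did not pass the test. GFRA3 (gene ID 2676; chromosome 5 from 138252380 to 138274621) encodes the coreceptor for artemin. GFRA3 read 19.5, 21.1 and 16.1 CPM in siControl and 16.3, 16.3 and 14.6 CPM in siPSF. The groups overlapped, since siControl replicate 3 lay below siPSF replicates 1 and 2. The log2 fold change was -0.27 (SE 0.12, 95% interval -0.52 to -0.01, edgeR's adjusted p = 0.151). Over the fits that each left out 1 library, GFRA3 stayed between -0.37 and -0.19 and was called in none of them, and it was not called by DESeq2 or limma either.

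GFRA1 (gene ID 2674; chromosome 10 from 116056925 to 116274705) encodes the coreceptor for GDNF and GFRA2 (gene ID 2675; chromosome 8 from 21690398 to 21812345) that for neurturin. GFRA1 was at 2.09, 1.57 and 1.69 CPM in siControl and 1.58, 1.74 and 1.16 CPM in siPSF. The groups overlapped, and its log2 fold change of -0.25 had a 95% interval from -0.70 to 0.20 (edgeR's adjusted p = 0.450). GFRA2 was at 0.871, 0.427 and 0.5002 CPM in siControl and 1.40, 1.32 and 0.396 CPM in siPSF. In siPSF replicates 1 and 2 GFRA2 lay above every siControl library, and in siPSF replicate 3 it lay below all of them. The log2 fold change of GFRA2 was 0.80 (SE 0.41, 95% interval -0.10 to 1.69, edgeR's adjusted p = 0.218). Without siPSF replicate 3 it was 1.18 and was called (edgeR's adjusted p = 0.00916), and without siPSF replicate 1 it was 0.52 and was not (edgeR's adjusted p = 0.512). GFRA1 was called in none of the 6 fits with 1 library omitted, and its estimate there ran from -0.38 without siPSF replicate 2 to -0.10 without siPSF replicate 3. The counts behind GFRA2 were from 39 to 166 per library and those behind GFRA1 from 114 to 254.

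NTRK2 (gene ID 4915; chromosome 9 from 84668522 to 85027054) was the neurotrophin receptor that fell. It gives rise to full-length TrkB and to truncated forms without the kinase, which gene-level counts do not separate. NTRK2 read 5.70, 4.53 and 4.80 CPM in siControl and 2.95, 2.07 and 1.66 CPM in siPSF. The highest siPSF library lay below the lowest siControl library. NTRK2 went from a mean of 5.01 ± 0.611 to 2.23 ± 0.661 CPM (SD, n = 3 each), and the log2 fold change was -1.16 (SE 0.20, 95% interval -1.60 to -0.73, edgeR's adjusted p = 0.00261). The counts were from 604 to 693 in siControl and from 164 to 351 in siPSF. Leaving out any 1 library kept it between -1.43 and -0.99, and NTRK2 was called in all 6 such fits.

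NTRK3 (gene ID 4916; chromosome 15 from 87859751 to 88256739) did not pass the test. It was at 0.830, 0.794 and 0.667 CPM in siControl and 1.33, 1.21 and 0.578 CPM in siPSF. As with GFRA2, siPSF replicates 1 and 2 lay above all siControl libraries and siPSF replicate 3 below them. The log2 fold change was 0.45 (SE 0.29, 95% interval -0.18 to 1.08, edgeR's adjusted p = 0.331). Without siPSF replicate 3 it was 0.74 and was called (edgeR's adjusted p = 0.0363), and without siPSF replicate 1 it was 0.23 and was not (edgeR's adjusted p = 0.712). Its counts were from 57 to 158 per library.

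NGFR (gene ID 4804; chromosome 17 from 49495293 to 49515008) was at 14.2, 16.4 and 15.5 CPM in siControl and 11.5, 13.8 and 10.95 CPM in siPSF. The groups did not overlap, but the gap between siControl replicate 1 and siPSF replicate 2 was small. Its log2 fold change was -0.35 (SE 0.12, 95% interval -0.61 to -0.09), with an adjusted p of 0.0676 from edgeR. NGFR was called lower without siPSF replicate 2 (log2 fold change -0.46, edgeR's adjusted p = 0.0372), by DESeq2's Wald test (adjusted p = 0.0309) and by limma on log2(FPKM + 0.5) (adjusted p = 0.0360). SORT1 (gene ID 6272; chromosome 1 from 109309575 to 109397918) was at 132, 127 and 144 CPM in siControl and 114, 113 and 126 CPM in siPSF. Here too the groups did not overlap, and the log2 fold change was -0.19 (SE 0.09, 95% interval -0.38 to -0.01, edgeR's adjusted p = 0.149). SORT1 was not called under any of the settings tried.

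BDNF (gene ID 627; chromosome 11 from 27654893 to 27722030), the ligand of TrkB and the only ligand among the 9 genes, was at 1.10, 1.13 and 0.961 CPM in siControl and 1.68, 1.36 and 0.862 CPM in siPSF. The groups overlapped, again with siPSF replicate 3 at the bottom. The log2 fold change was 0.30 (SE 0.25, 95% interval -0.24 to 0.83, edgeR's adjusted p = 0.460), on counts from 85 to 200 per library. The estimate for BDNF was 0.065 without siPSF replicate 1 and 0.52 without siPSF replicate 3, and it was called in none of the 6 fits with 1 library omitted. The antisense lncRNA gene BDNF-AS (gene ID 497258; from 27506852 to 27698171) overlaps BDNF on the other strand. BDNF-AS was at 2.24, 2.45 and 2.36 CPM in siControl and 1.70, 1.71 and 1.31 CPM in siPSF, with a log2 fold change of -0.58 (SE 0.17, edgeR's adjusted p = 0.0439). Omitting any 1 of the 6 libraries ended this call, with an adjusted p of up to 0.142 by edgeR. Whether strand was used in counting is not given in the sources used here, so reads of BDNF and BDNF-AS cannot be told apart. NTRK3-AS1 and NGFR-AS1, which overlap NTRK3 and NGFR, were not analysed here.

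**Figure D2:**
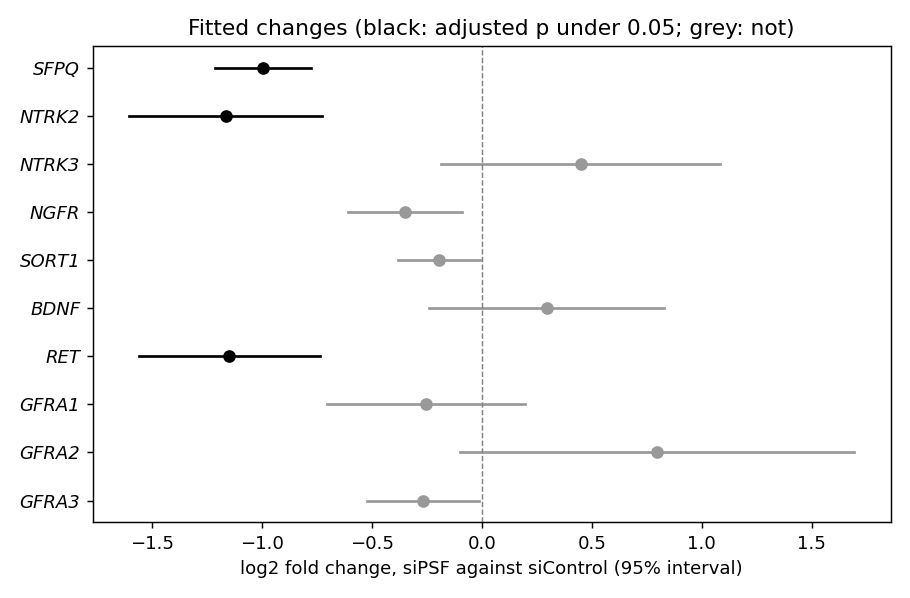
Log2 fold change of siPSF against siControl (x axis) for SFPQ and the 9 genes (y axis), with the 95% interval from edgeR's quasi-likelihood fit as a line. SFPQ, NTRK2 and RET, in black, have an adjusted p under 0.05, and the intervals of NTRK3, BDNF, GFRA1 and GFRA2 include 0.

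Levels of different genes were compared on the FPKM values, which are per kilobase of exon. In siControl the order was RET at 46.5 ± 7.85 FPKM, SORT1 at 18.0 ± 1.56, GFRA3 at 8.85 ± 1.002, NGFR at 4.20 ± 0.315 and NTRK2 at 0.629 ± 0.0657 FPKM (SD, n = 3 each). Below these stood BDNF at 0.218 ± 0.0217, GFRA1 at 0.177 ± 0.0249, GFRA2 at 0.111 ± 0.0432 and NTRK3 at 0.0943 ± 0.0231 FPKM. From RET down to BDNF each neighbour was separate, with no overlap between their siControl libraries, whereas BDNF and GFRA1, GFRA1 and GFRA2, and GFRA2 and NTRK3 overlapped. In siPSF the order of RET and SORT1 was no longer clear in every library: RET was at 22.7, 23.8 and 12.99 FPKM and SORT1 at 14.6, 14.1 and 15.8 FPKM. NTRK2, at 0.353, 0.216 and 0.175 FPKM in siPSF, overlapped BDNF, at 0.322, 0.267 and 0.171 FPKM. FPKM per count was not constant for every gene, since in siPSF replicate 2 NTRK3 lay 33.3% and NTRK2 11.6% from the gene's median.

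**Figure D3:**
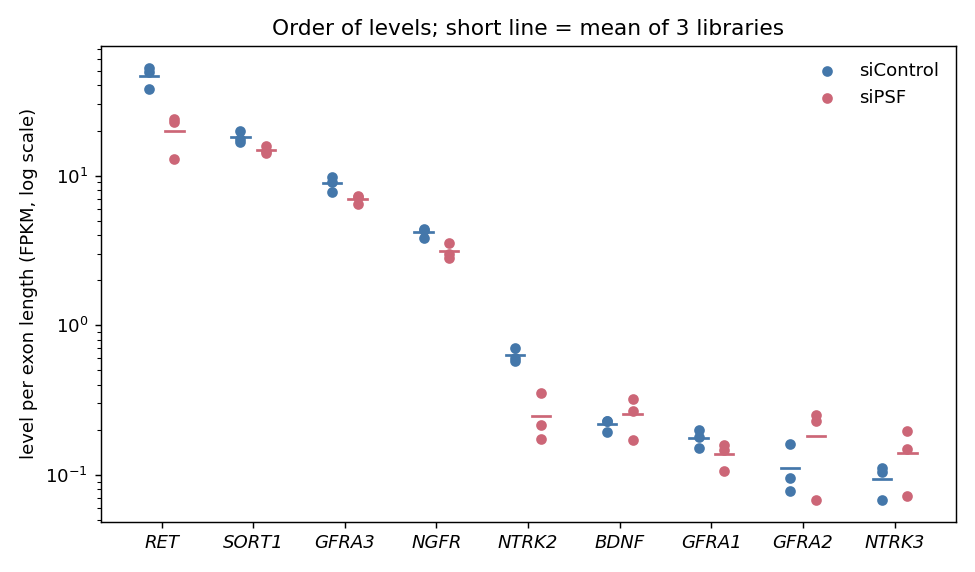
Level per exon length in FPKM (y axis, log scale) of the 9 genes ordered by their siControl mean (x axis), with points for libraries and short lines for means. RET, SORT1, GFRA3 and NGFR are at 2.82 FPKM or more in every library and the other 5 genes at 0.703 FPKM or less.

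Among the coreceptors GFRA3 was the main transcript. It made up 96.2, 97.7 and 96.6% of the summed FPKM of GFRA1, GFRA2 and GFRA3 in siControl and 94.9, 94.9 and 97.4% in siPSF. RET stood at 4.16, 5.04 and 6.78 times the FPKM of GFRA3 in siControl and at 3.10, 3.31 and 2.02 times in siPSF, so that the groups did not overlap.

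Whether paired genes changed by different amounts was tested on the log2 ratio of their CPM within each library, for 6 pairs. With 3 libraries against 3 the smallest two-sided p of the exact permutation test is 0.1 (0.2 after Benjamini-Hochberg adjustment over the 6 pairs), so no pair could pass 0.05. NTRK2/NTRK3 went from 2.71 ± 0.178 to 1.15 ± 0.378 (SD, n = 3 each; difference -1.56, exact permutation test, p = 0.1). NTRK2/NGFR went from -1.62 ± 0.276 to -2.47 ± 0.446 (difference -0.85, exact permutation test, p = 0.1). GFRA3/RET went from -3.82 ± 0.351 to -2.89 ± 0.392 (difference 0.92, exact permutation test, p = 0.1). In these 3 pairs the groups did not overlap, that is, NTRK2 was lower relative to NTRK3 and NGFR, and RET lower relative to GFRA3, in every siPSF library. The groups overlapped for GFRA1/GFRA2 (difference -0.92), GFRA3/GFRA2 (-0.92) and SORT1/NGFR (0.16), with exact permutation p of 0.2, 0.3 and 0.4.

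**Figure D4:**
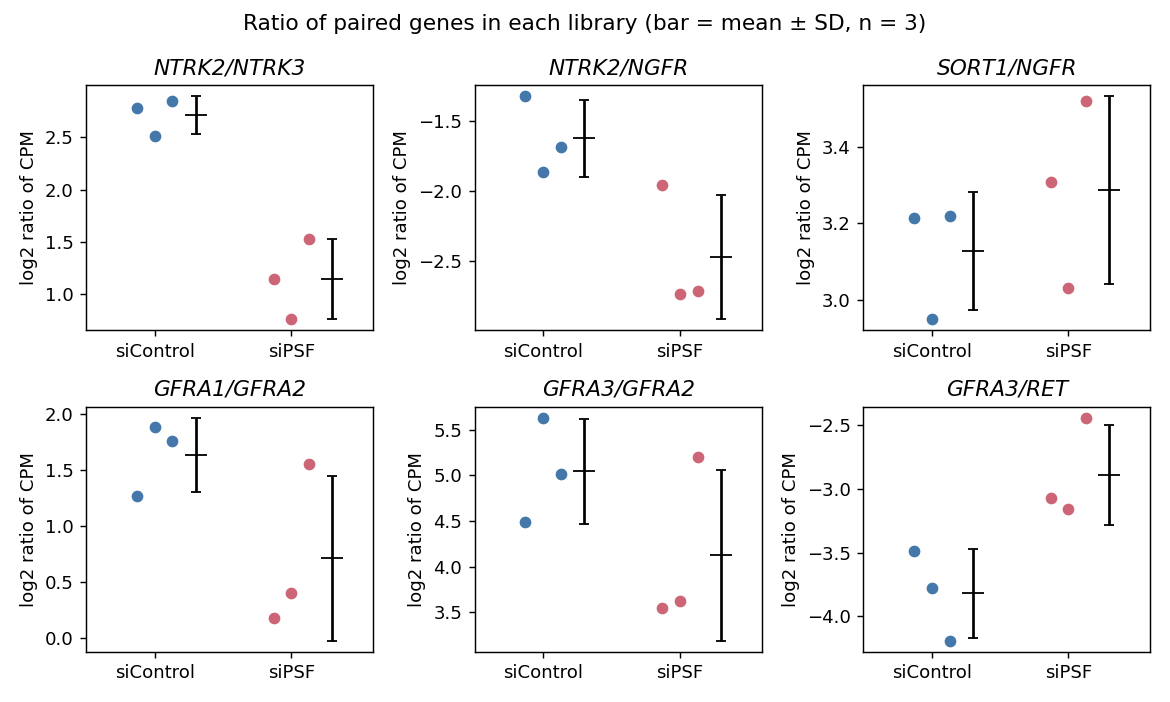
Log2 ratio of the CPM of 2 genes (y axis, each panel on its own scale) in the 3 siControl and 3 siPSF libraries (x axis), with the mean ± SD. NTRK2/NTRK3, NTRK2/NGFR and GFRA3/RET show no overlap between groups, and the other 3 pairs do.

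The fall of RET and NTRK2 was set beside gene length, which moved with the calls across the whole table: 25.1% of protein-coding genes spanning at least 100 kb were called lower, and 4.65% of those under that length. NTRK2 spans 359 kb and RET 53.3 kb. NTRK3, the longest of the 9 genes at 397 kb, GFRA1 at 218 kb and GFRA2 at 122 kb were not called lower, and the point estimates of NTRK3 and GFRA2 were above 0. The other genes span from 19.7 kb (NGFR) to 88.3 kb (SORT1). The part of gene length in these results was not tested.

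The other genes of both pathways were taken from 4 lists of ligands, receptors and coreceptors, adaptors, and genes of the ERK response. Of the 62 genes tested beside the 9, 15 (24.2%) were called lower and 2 (3.23%) higher, against 8.27% and 6.65% of all genes tested, and the median log2 fold change was -0.11. Without siControl replicate 2 these counts were 9 and 1, while calls lower over all genes went from 1628 to 928. Without siControl replicate 3, 1 of the 62 was called higher, and without siPSF replicate 3, 4 were. The 23 that span at least 100 kb held 5 of the genes called lower, and the 39 shorter ones held 10.

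Among the ligands beside BDNF none of the 4 tested was called. PSPN (persephin), NRTN (neurturin) and ARTN (artemin) were low, with siControl means of 0.675, 2.24 and 1.21 CPM. GDF15, which signals through GFRAL and RET, averaged 272 ± 49.4 CPM after siControl and 334 ± 119 CPM after siPSF (SD, n = 3 each), and its log2 fold change was 0.29 (SE 0.22, edgeR's adjusted p = 0.408). NTF3, NTF4, GDNF, GFRA4 and GFRAL were not analysed here.

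Among the other receptors and coreceptors SORCS1 and NCAM1 were called lower and LINGO1 and SORL1 higher. SORCS1 (gene ID 114815; chromosome 10 from 106573663 to 107181138), a sortilin-related sorting receptor gene of 607 kb, went from 173 ± 8.09 to 74.4 ± 9.32 CPM (SD, n = 3 each; log2 fold change -1.21, edgeR's adjusted p = 4.15e-05). NCAM1, an adhesion molecule that can also bind GDNF, had a log2 fold change of -0.33 (edgeR's adjusted p = 0.0233), and was called in 3 of the 6 fits with 1 library omitted. LINGO1, a partner of NGFR in the Nogo receptor complex, rose from 7.97 ± 0.816 to 12.6 ± 1.38 CPM (log2 fold change 0.66, edgeR's adjusted p = 0.00473). SORL1, another sortilin relative, was called higher (log2 fold change 0.56, edgeR's adjusted p = 0.0459), but in only 2 of those 6 fits.

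Of the 33 adaptor genes 6 were called lower and 0 higher, against 8.27% and 6.65% of all genes tested. The 4 with the smallest p were DOK6, GAB2, IRS2 and SHC3. DOK6, a docking protein that binds RET, went from 22.0 ± 2.68 to 9.91 ± 1.61 CPM (SD, n = 3 each; log2 fold change -1.15, edgeR's adjusted p = 3.04e-04), and its gene spans 448 kb. GAB2, a scaffold that recruits PI3-kinase and SHP2, had a log2 fold change of -0.69, IRS2, a docking protein best known from insulin signalling, -0.64, and SHC3, a neuronal SHC adaptor of Trk receptors, -0.85 (edgeR's adjusted p = 3.44e-04, 8.93e-04 and 0.00137). These 4 genes were called in each of the 6 fits that left out 1 library. SHC2 (-0.38) and MAGED1 (-0.32), an NGFR-binding protein, were also called, but in only 4 and 3 of those 6 fits. The more general links in the chain, SHC1, GRB2, FRS2, SOS1, GAB1, PTPN11 and PLCG1, had log2 fold changes from -0.10 to 0.11 and were not called.

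Of the 16 ERK feedback and response genes 6 were called lower and 0 higher, against 8.27% and 6.65% of all genes tested. A log2 fold change below 0 was found in 13 of the 16, and in 9541 of the 19694 genes tested. SPRY2, an inhibitor of receptor tyrosine kinase signalling that ERK induces, was at 96.4, 112 and 125 CPM in siControl and 56.1, 54.1 and 59.6 CPM in siPSF (log2 fold change -0.97, SE 0.10, edgeR's adjusted p = 1.20e-04). DUSP6, the phosphatase that inactivates ERK, ETV4 and ETV5, transcription factors downstream of RET and ERK, had log2 fold changes of -0.52, -0.44 and -0.49 (edgeR's adjusted p = 0.00928, 0.00943 and 0.00960). SPRY2, DUSP6 and ETV5 were called in all 6 fits that left out 1 library and ETV4 in 5. VGF, a neuropeptide precursor that neurotrophins induce, fell from 1159 CPM in siControl by 0.50 on the log2 scale, and DUSP5, another ERK phosphatase, from 2.47 CPM by 0.82 (edgeR's adjusted p = 0.0166 and 0.0269). Their calls held in 4 and 3 of the 6 fits with 1 library omitted. These genes answer to many receptors, and none of the values separates RET or Trk input from other inputs. EGR1, FOS and ARC, early response genes, did not pass the test, with log2 fold changes of -0.53, -0.18 and 0.20.

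**Figure D5:**
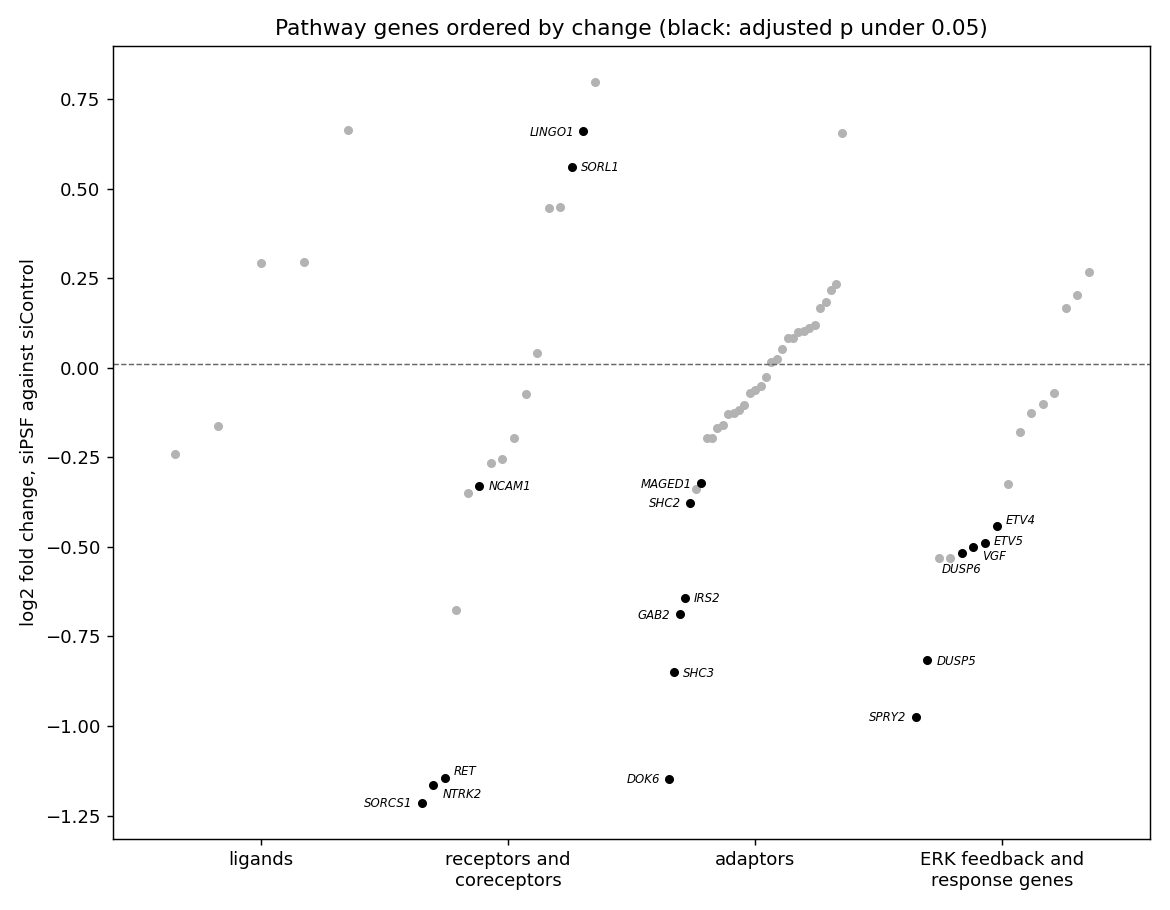
Log2 fold change of siPSF against siControl (y axis) for genes of 4 pathway lists (x axis), ordered within each list, with called genes in black and the dashed line at the median of all genes tested, 0.01. RET, NTRK2 and SORCS1 lie lowest among the receptors, and no adaptor or ERK response gene is called higher.

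The genes whose 6 values lay closest to those of RET, NGFR, GFRA3 and SORT1, the members whose mean is at least 5 CPM, were sought among the 11907 genes above that level. The measure was the root mean square difference of log2 CPM centred on the siControl mean. For RET these were ADAMTS9 (0.097), a secreted metalloprotease gene, and PLCB1 (0.13), a phospholipase C gene, with log2 fold changes of -1.15 and -1.14. For NGFR they were POLR2A (0.028), the largest subunit of RNA polymerase II, and NUP210 (0.030), a nuclear pore gene, with log2 fold changes of -0.36 and -0.32. For GFRA3 they were C1orf122 (0.039) and NTMT1 (0.040), and for SORT1 they were SLC24A1 (0.022) and RAPGEF2 (0.024). The likeness is a description over 6 libraries in which all these genes share depth and group.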

How the data were processed

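SH-SY5Y RNA was measured in 6 libraries, grouped by the sample titles. For the deposited counts, the authors made poly(A) libraries, removed rRNA reads with Bowtie 2, mapped paired-end reads to hg38 with TopHat and counted tags on RefSeq. The submitters' processing notes name Trimmomatic, HISAT2 2.1.0, StringTie 2.1.3b and GRCh38 instead, so the sources differ. The labels name a stranded kit and the study's methods a TruSeq RNA kit. The authors deposited raw counts and FPKM values (RPKM in the methods), which divide by exon length and mapped reads. The smallest count is 1, so genes with no read in a library were not analysed here.

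Counts were filtered with filterByExpr, normalized by TMM and fitted with edgeR 4.0.16 (glmQLFit, glmQLFTest, R 4.3.3), with standard errors taken from the F statistic. DESeq2 1.42.0, limma 3.58.1, scipy 1.17.1 and pandas 2.3.3 were also used. No pair of replicate libraries was alike within sampling noise (chi-square per degree of freedom 21.7 or more). On simulated data for this comparison, 19694 genes of which 200 were changed by 2-fold, 71.7% of the changed genes tested were called and 7.79% of calls were false. In the real data 14.9% of genes tested were called, with changes of many sizes. The simulated rates therefore need not hold there. Positions and lengths came from RefSeq GRCh38.p14.

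The 9 genes and all lists were chosen with earlier results of these data known. Named were the 9 genes, SFPQ, up to 4 called genes per list and direction by smallest p, the 2 closest genes of each gene over 5 CPM, and overlapping genes; some genes of the lists are counted but not reported here by name; the other pathway genes named were chosen after their values were seen. Alternatives were leaving out each library, a replicate block, DESeq2's size factors or Wald test, no filter on low counts, limma on log2(FPKM + 0.5) or log2(FPKM + 0.1) for genes of a mean of at least 0.5 FPKM, and, for the ratios, FPKM or 0.5 added counts.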

Additional observations from a re-analysis of the deposited data

How the results depend on the processing

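Alternative values were compared for the 9 genes, SFPQ, the counts of calls and the 6 ratios. Of these values 191 stayed the same: genes kept direction and side of the threshold, counts stayed within 1.5 times, and ratios kept direction. The ratios were judged by direction alone. A further 8 counts moved and 7 gene values newly passed the threshold. None changed direction, and none of the calls of RET, NTRK2 and SFPQ was lost. NTRK2, NTRK3, BDNF, GFRA1 and GFRA2 were under the FPKM limit of the limma fits and have no value there. Leaving out 1 library at a time gave from 0 to 2 of the 9 genes called higher (2 without siPSF replicate 3, GFRA2 and NTRK3), from 2 to 3 called lower, from 9 to 16 of the 62 other pathway genes called lower and from 1 to 4 called higher. The pathway genes called higher numbered 4 with DESeq2's Wald test, 1 without the filter on low counts and 1 with limma on log2(FPKM + 0.5). The cause of these shifts was not tested. The replicate numbers do not pair the libraries: same-numbered libraries' deviations from their group means correlated at -0.022, 0.056 and 0.056 across genes, and 2 of the 6 libraries correlated best with their own number. With the replicate number as a block, 3 of the 9 genes were called lower, NGFR being added (log2 fold change -0.35, edgeR's adjusted p = 0.0463), and 0 higher, and BDNF-AS was not called (adjusted p = 0.0616). BDNF, NTRK3, GFRA1 and GFRA2 had counts of 39 to 254 per library, and the 95% intervals of all 4 include 0; which part of their width comes from depth was not tested.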
